A study of Mus musculus with 4 samples.

Results

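The MICAL family of 6 genes was examined in GFP-positive cells of the mouse embryonic neural tube with and without functional *Prdm13*. The members are the MICAL monooxygenase genes *Mical1*, *Mical2* and *Mical3*, the MICAL-like genes *Micall1* and *Micall2*, and *Micalcl*, whose name stands for MICAL C-terminal like. They were taken by symbol from the 24421 genes of the expression table. The family was chosen because *Micalcl* fell strongly between the genotypes compared here, so the members' values in that comparison are a description. The fit across all genes includes 5 of the members, and their fold changes and calls in it are not evidence about the family. *Micalcl* was close to absent in mutant cells, while the other 5 members moved by a factor of at most 1.24.

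MICAL proteins are flavin monooxygenases that oxidise methionines of actin, which takes actin filaments apart. They bind plexin A, a semaphorin receptor, and take part in the repulsion of growing axons. Most members end in a bMERB domain, a C-terminal module that binds Rab GTPases, the switches of membrane traffic. The MICAL-like proteins lack the monooxygenase domain and work in endosomes and at cell junctions, and *Micalcl* encodes a protein that resembles the C-terminal part of a MICAL.

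In the allele *Prdm13 GFP*, GFP inserted into the first exon disrupts *Prdm13*, a gene for a zinc finger protein of the PRDM family. Both genotypes carry the allele, so GFP marks the *Prdm13* lineage in heterozygous *Prdm13 GFP/+* controls and in homozygous *Prdm13 GFP/GFP* mutants. The mice were of mixed ICR and C57Bl/6 background. Neural tubes were taken at E11.5, GFP-positive cells were sorted, and RNA of 7 *Prdm13 GFP/+* embryos and of 9 *Prdm13 GFP/GFP* embryos was pooled by genotype. Each pool gave 2 libraries, which are technical replicates, so every SD and test here holds the spread of library preparation and sequencing and none between embryos.

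Levels are in RPKM, reads scaled to exon length and library size, and the read numbers behind them were recovered from the steps of the RPKM values. The libraries held between 12159329 and 19322785 recovered reads and between 11774 and 11831 genes at an RPKM of 1 or more. The targeted gene *Prdm13* had RPKM values of 114 and 127 in *Prdm13 GFP/+* and of 310 and 324 in *Prdm13 GFP/GFP*. A level of *Prdm13* reads does not check the loss of its protein, since transcripts of the disrupted allele can still be counted, and the cause of the higher level was not tested. Its log2 fold change was 1.398 (SE 0.0613, limma adjusted p = 3.6e-05). A gene was tested when its mean RPKM reached 1 in either genotype, which 12046 genes did, and was called at a limma adjusted p under 0.05 with a fold of at least 1.5. Called higher in mutant cells were 440 of them, and 322 were called lower. With 2 libraries in each genotype, the smallest p of an exact two-sided permutation test is 0.333, so none is given for single genes.

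*Micalcl* (gene ID 100504195) lies on the plus strand at chr7:112368308-112413104 of GRCm38 in RefSeq, 13113 bp downstream of *Mical2* (gene ID 320878, plus strand, chr7:112225825-112355194). RefSeq gives *Micalcl* a pair of promoter windows, each from 250 bases before to 50 bases after a transcript start, and *Mical2* has its own. The windows are printed because *Micalcl* was transcribed in control cells and *Mical2* barely was. They are plus-strand RefSeq sequence of GRCm38.p6, at chr7:112368058-112368357 for the first *Micalcl* start, chr7:112374607-112374906 for the second and chr7:112225586-112225885 for *Mical2*. Capitals mark E-boxes, the letters CANNTG, which basic helix-loop-helix factors can bind.
Micalcl start 1: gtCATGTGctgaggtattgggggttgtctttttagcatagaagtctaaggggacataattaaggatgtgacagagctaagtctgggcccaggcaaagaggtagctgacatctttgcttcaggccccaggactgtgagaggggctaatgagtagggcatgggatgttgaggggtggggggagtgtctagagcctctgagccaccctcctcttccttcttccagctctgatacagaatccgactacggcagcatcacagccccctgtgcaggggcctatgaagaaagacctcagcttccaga
Micalcl start 2: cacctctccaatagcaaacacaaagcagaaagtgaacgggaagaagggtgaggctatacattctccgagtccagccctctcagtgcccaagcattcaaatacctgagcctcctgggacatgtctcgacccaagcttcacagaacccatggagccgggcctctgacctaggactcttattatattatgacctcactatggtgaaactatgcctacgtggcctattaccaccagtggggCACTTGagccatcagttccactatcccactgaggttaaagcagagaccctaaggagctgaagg
Mical2: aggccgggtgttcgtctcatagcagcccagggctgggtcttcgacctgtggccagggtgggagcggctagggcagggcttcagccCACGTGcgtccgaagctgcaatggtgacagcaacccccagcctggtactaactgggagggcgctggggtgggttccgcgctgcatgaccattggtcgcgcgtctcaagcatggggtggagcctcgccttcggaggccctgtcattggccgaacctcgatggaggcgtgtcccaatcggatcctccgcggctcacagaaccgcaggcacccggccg

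Each of these windows held 1 E-box. The *Mical2* window had a GC content of 66.7% with 24 CpG dinucleotides, and the *Micalcl* windows had 53.3% with 2 and 51.0% with 5, against a median of 52.7% with 7 over all 32851 RefSeq promoter windows. E-boxes were counted on both strands, on which CANNTG reads alike, and 72.3% of all windows held at least 1. The other members had 1 E-box (*Mical1*), 5 and 2 (the pair of *Mical3* starts) and 0 (*Micall1* and *Micall2*). The E-box with the letters CAGCTG occurred in the *Mical1* window and in 1 of the *Mical3* windows and in 16.3% of all windows. A match describes letters and is not a shown binding site.

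GENCODE M21 treats the interval differently and has no separate *Micalcl*. It joins both genes into a single *Mical2* with 13 transcripts, of which 6 lie within the RefSeq *Mical2* interval, 5 within the *Micalcl* interval, and 2 start near the end of *Mical2* and run on into *Micalcl*. The exon length of *Micalcl* that the RPKM values imply is 2397 bases, equal to the exon bases of the 10-exon transcript that starts at the first *Micalcl* window, within the RefSeq limits. Reads on exons shared by these transcripts cannot be assigned to one start. A long noncoding RNA on the minus strand, *Gm51494* (chr7:112393602-112414311), overlaps *Micalcl* and is not among the genes of the table. Whether counting used strand is not given in the sources used here, so antisense reads in shared exons cannot be told apart from *Micalcl*.

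*Micalcl* had RPKM values of 3.86 and 2.94 in the *Prdm13 GFP/+* libraries, from 107 and 129 reads. In the *Prdm13 GFP/GFP* libraries it had 0.0770 and 0.0305, from 3 reads and 1 read. Both control libraries lay far above both mutant libraries. The mean RPKM was 3.40 ± 0.651 (SD, n = 2 libraries) in control and 0.0537 ± 0.0329 in mutant cells. Relative to library size, the 236 control reads against 4 mutant reads give a rate 59.1 times higher in *Prdm13 GFP/+*, with an exact 95% interval of 22.8 to 219 that covers counting error only.

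The log2 fold change of *Micalcl*, mutant minus control, was -4.51 (SE 0.354) on the log2(RPKM + 0.1) scale, which understates the change of a gene this low. With a pseudocount of 1 it was -2.05, and with 0.01 it was -5.83. It was the third most negative value of the 12046 tested genes and, once genes under 20 reads in every library were left out, the most negative of 11773. *Micalcl* entered the test through its control level alone. In these bulk samples, fewer cells that express a gene and less RNA per cell cannot be told apart.

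**Figure D1:**
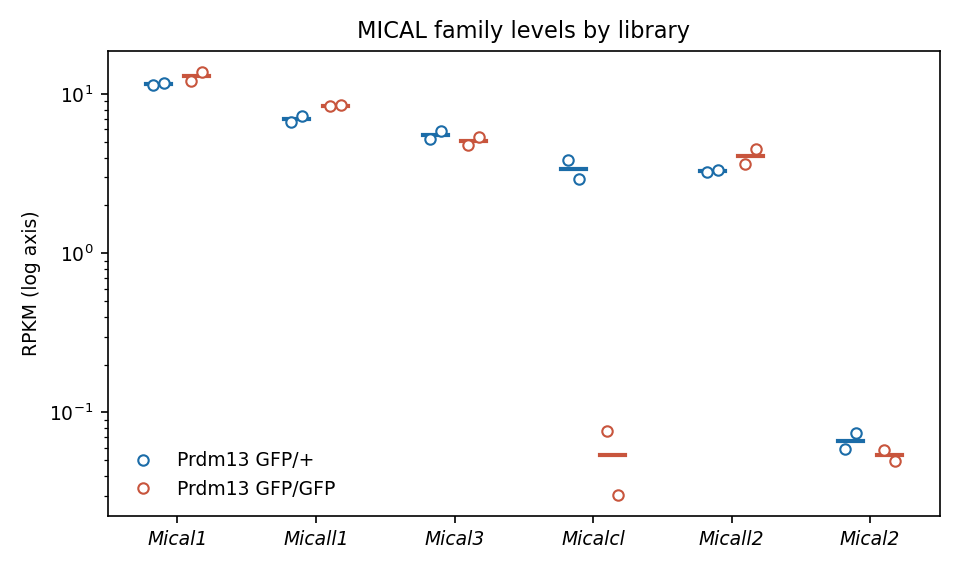
RPKM of the 6 MICAL family genes on a log axis, with 1 circle per library and a bar at the mean of the 2 libraries of a genotype, ordered by the mean in Prdm13 GFP/+. Micalcl falls from 3.40 to 0.0537, the level at which Mical2 sits in both genotypes, while the other 4 genes stay between 3.23 and 13.8 RPKM.

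*Mical2*, a MICAL that acts on nuclear actin and on gene control by serum response factor, was near the limit of detection in both genotypes. Its RPKM values were 0.0586 and 0.0741 in control and 0.0584 and 0.0496 in mutant libraries, from 5, 10, 7 and 5 reads. The libraries did not overlap, by a margin of less than 1 read. The read rate in control was 1.25 times that in mutant cells, with an exact 95% interval of 0.547 to 2.93, so a difference was not detectable at this depth. *Mical2* did not reach the mean RPKM of 1 and was not tested. The reads of *Micalcl* in control cells therefore stood beside almost none on the gene upstream of it.

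The other 2 monooxygenase genes were expressed in both genotypes. *Mical1* (gene ID 171580, plus strand, chr10:41475860-41487030), whose product acts in semaphorin repulsion, was the highest member throughout. It had RPKM values of 11.495 and 11.8 in *Prdm13 GFP/+* and of 12.1 and 13.8 in *Prdm13 GFP/GFP*. Both mutant libraries were higher, with a ratio of means of 1.11 and a log2 fold change of 0.15 (SE 0.0764). *Mical3* (gene ID 194401, minus strand, chr6:120931546-121173757), which acts in the docking of secretory vesicles, had 5.25 and 5.83 RPKM in control against 4.79 and 5.38 in mutant libraries. Its libraries overlapped between genotypes, and its log2 fold change was -0.12 (SE 0.0962). Between 474 and 1053 reads stood behind each value of these genes.

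The MICAL-like genes were both somewhat higher in mutant cells. *Micall1* (gene ID 27008, plus strand, chr15:79108550-79136900), which organises tubular recycling endosomes, had RPKM values of 6.71 and 7.35 in *Prdm13 GFP/+* and of 8.41 and 8.50 in *Prdm13 GFP/GFP*. The ratio of its means was 1.20 and its log2 fold change 0.26 (SE 0.0731). *Micall2* (gene ID 231830, minus strand, chr5:139706692-139736333), which works with RAB13 at cell junctions, had 3.23 and 3.34 RPKM in control against 3.64 and 4.50 in mutant libraries. The ratio of its means was 1.24 and its log2 fold change 0.29 (SE 0.123). The libraries of neither gene overlapped between genotypes, but the higher of the mutant *Micall2* values lay well apart from the lower one.

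Of the 5 members in the fit, 1 was called lower, *Micalcl*, and 0 were called higher. Over all tested genes, 2.67% were called lower, 3.65% higher and 6.33% in either direction. The libraries of the genotypes did not overlap for 4 of the 5, 3 of them higher and 1 lower in the mutant. The same held for 31.7% of all tested genes in the higher and 30.3% in the lower direction, 62.1% in all. The members were chosen on this comparison and nothing is read from these shares.

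**Figure D2:**
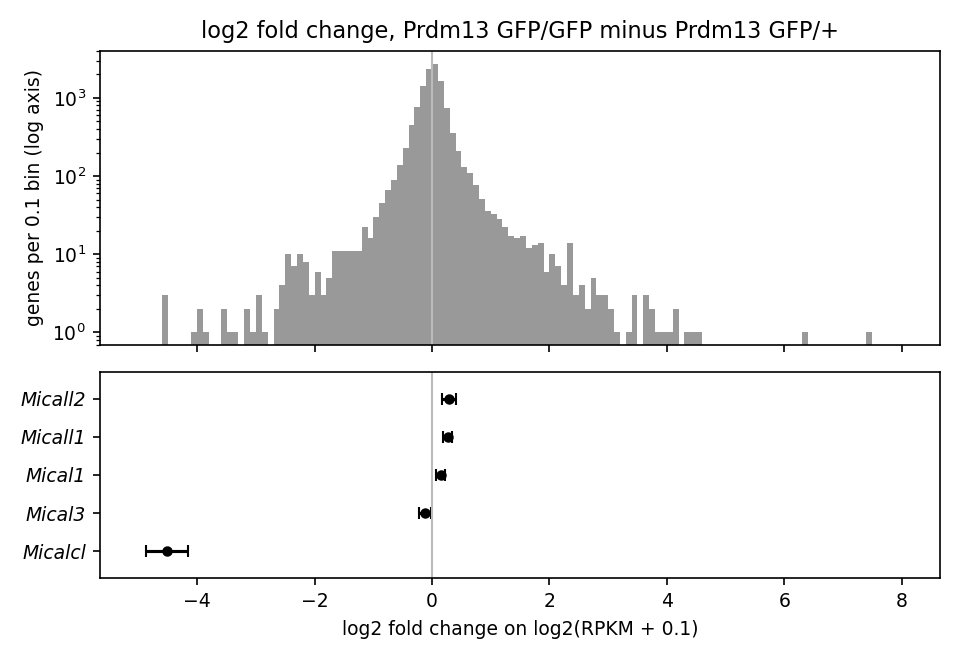
Histogram of the log2 fold change of all 12046 tested genes (upper panel, number of genes per bin on a log axis) above the 5 tested MICAL family genes on the same horizontal axis (lower panel, point and SE). Micalcl lies at -4.51 in the far left tail, and the other 4 lie between -0.12 and 0.29, in the body of the distribution.

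RPKM is a level per exon length, so the members can be ordered by it within a genotype. In *Prdm13 GFP/+* the order was *Mical1*, *Micall1*, *Mical3*, *Micalcl*, *Micall2* and *Mical2*, and only *Micalcl* and *Micall2* overlapped among neighbours in this order. In *Prdm13 GFP/GFP* the order was *Mical1*, *Micall1*, *Mical3*, *Micall2*, *Mical2* and *Micalcl*, and only the last pair overlapped. *Micalcl* thus went from place 4 to place 6. It made up 10.97% of the summed RPKM of the family in control and 0.175% in mutant cells. The sum itself was 31.0 ± 0.510 RPKM in control and 30.7 ± 2.24 in mutant cells, a ratio of 0.991. Without *Micalcl* the sum was 27.6 ± 1.16 and 30.6 ± 2.27, and the mutant libraries were both higher.

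The genes next to *Micalcl* were compared to see whether the region moved with it. Among the 5 genes of the table on each side, 1 is *Mical2*, and 6 of the other 9 were tested. *Dkk3*, a secreted protein gene of the Dickkopf family whose interval begins 252289 bases before that of *Micalcl*, rose. It had RPKM values of 2.83 and 2.52 in *Prdm13 GFP/+* and of 7.55 and 7.60 in *Prdm13 GFP/GFP*, with a log2 fold change of 1.47 (SE 0.0920, limma adjusted p = 0.000182). The next genes on the other side, *Parva*, a focal adhesion gene, and *Tead1*, a transcription factor gene of the Hippo pathway, had log2 fold changes of -0.02 and -0.14. The clock gene *Arntl* was at 0.04, the glycosyltransferase gene *Galnt18* at 0.17 and the deubiquitinase gene *Usp47* at -0.20, and none of these 5 was called. *Usp47* was lower in both mutant libraries with an adjusted p of 0.041 in limma, but short of the fold required.

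The remaining 3 neighbours, *1700012D14Rik*, *Rassf10* and *4930543E12Rik*, had mean RPKM values of 0.981 or less and were not tested. No neighbour of *Micalcl* was called lower. Of its 6 tested neighbours 1 was called (16.7%), against 6.33% of all tested genes, of which 2.67% were called lower. With 6 tested genes, 0 lower calls do not show whether the region moved. Around all 6 members, 30 of 50 neighbouring genes that are no members were tested. Of these, 1 was called, *Dkk3*, which is 3.33% against 6.33% of all tested genes. The median log2 fold change of the 30 was 0.00 against 0.01 over all tested genes.

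**Figure D3:**
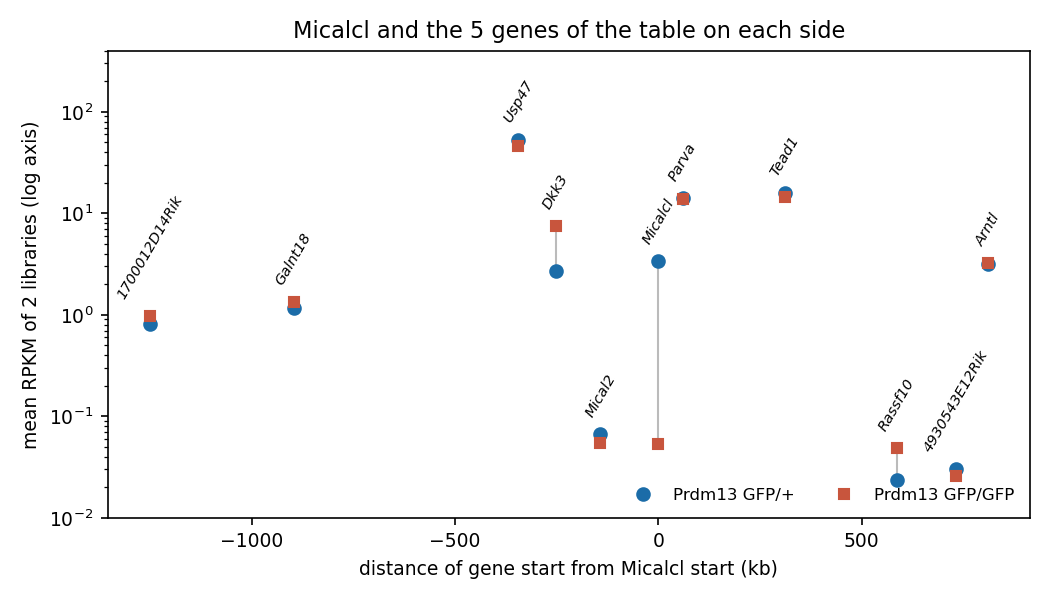
Mean RPKM of the 2 libraries of each genotype on a log axis for Micalcl and the 5 genes of the table on each side, against the distance of the gene start from the Micalcl start in kb, with a line joining the genotypes. Micalcl falls from 3.40 to 0.0537 and Dkk3 rises from 2.68 to 7.57, while the markers of Parva and Tead1, downstream, lie almost on each other.

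The genes whose pattern across the 4 libraries was most like that of *Micalcl* were then listed. Likeness was measured as the Euclidean distance between log2(RPKM + 0.1) values centred on the control mean, over 11772 other genes with at least 20 reads in a library, a minimum that removed the 2 tested genes with a more negative fold change. The distance largely follows the fold change for which *Micalcl* was chosen. No gene lay within a distance of 1, so the nearest genes are not close to *Micalcl*. The nearest were *Rpp25* (distance 1.95), a gene for a subunit of RNase P, *Col6a4* (2.26), a collagen gene, and *Chac1* (2.52), a glutathione-degrading enzyme gene. They were followed by *Pax2* (2.72) and *Gad2* (2.73), a transcription factor gene and a GABA-synthesising enzyme gene of inhibitory neurons. *Rpp25* had RPKM values of 10.8 and 10.7 in *Prdm13 GFP/+* and of 1.51 and 0.815 in *Prdm13 GFP/GFP*. Its mean control level was 9.25 times the mutant one, against 63.2 times for *Micalcl*. *Pax2* had 106 and 119 in control and 17.7 and 18.6 in mutant cells, a control level 6.20 times the mutant one. These 5 genes were picked for likeness in the same libraries, and their levels are given as a description.

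The identity genes of dorsal neurons give the setting of these values. All 10 listed genes of the dorsal inhibitory lineage were called lower, with a median log2 fold change of -2.47, and all 7 of the dorsal excitatory lineage were called higher, with a median of 2.11. Both lists were made knowing that these genes move. Of 7 markers of the sorted lineage, *Ptf1a* was called higher and *Lbx1* lower, 5 had a negative log2 fold change and the median was -0.26. Their summed RPKM was 1448 to 1530 in control and 1649 to 1766 in mutant libraries, most of it from the neuronal tubulin gene *Tubb3*. Without *Tubb3* the sum was 432 and 468 in control and 384 and 394 in mutant libraries.

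Markers of other cells were also measured. The summed RPKM of 6 blood markers was 30.8 to 31.4 in control and 33.1 to 34.5 in mutant libraries, with *Hba-a1* and *Hba-a2* listed at 0 and most of the sum from the embryonic globin gene *Hbb-y*. For 5 endothelial markers it was 2.09 to 2.31 and 2.15 to 2.29, and for 5 mesenchymal markers 4.44 to 4.89 and 3.34 to 3.53. For 5 markers of neural crest and sensory ganglia it was 12.7 to 16.1 and 7.52 to 8.06, most of it from *Foxd3*, which was called lower. For 6 muscle markers it was 2.30 to 2.50 and 1.28 to 1.72, most of it from *Tnnt1*, which was called lower. *Tnnt1* had RPKM values of 2.18 and 1.75 in control and of 0.717 and 1.14 in mutant libraries. The defining factor genes *Myod1*, *Myog* and *Myf5* had a mean of at most 0.0663. Their means and that of *Actc1* were higher in mutant cells, and that of *Des* was lower, all at low levels. The mesenchymal sum was lower in mutant libraries, as were the neural crest and muscle sums, which came mostly from *Foxd3* and *Tnnt1*. *Micalcl* was lower too, and the part of such cells in its fall was not tested.

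Genes that work with MICAL proteins were followed in 8 lists of 74 genes, of which 68 were tested. Of these, 2 were called higher, 2 lower and 64 were not called. That is 5.88% called, against 6.33% of all tested genes, and the median log2 fold change was 0.05 against 0.01. An adjusted p under 0.05 at any fold was reached by 32.4% of the listed genes and by 19.7% of all. Some listed genes that reached it combine a high level with a small SE. *Actg1*, with mean RPKM values of 1710 and 1949, did so at a log2 fold change of 0.19 (SE 0.0387). Whether level accounts for the difference in shares was not tested.

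The Rab GTPases that bMERB domains bind had 0 of 9 genes called, with a median log2 fold change of 0.11. *Rab13*, the partner of MICAL-L2, had mean RPKM values of 2.66 and 3.45, and *Rab8a*, a Rab of exocytosis, 39.9 and 43.6, in control and mutant. Among 3 genes outside the family that encode a bMERB domain, *Ehbp1l1*, which acts with RAB8 in membrane transport, was called higher. It had RPKM values of 1.77 and 2.06 in *Prdm13 GFP/+* and of 2.89 and 3.02 in *Prdm13 GFP/GFP* (log2 fold change 0.60, SE 0.131, limma adjusted p = 0.0231). The median of that list was -0.11. The recycling endosome genes, with which MICAL-L1 works, had 0 of 10 tested genes called and a median of 0.01.

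Upstream of the enzymes, 1 of 11 genes of plexin A receptors, neuropilins and collapsin response mediators was called. *Plxna4*, a semaphorin receptor gene, fell from RPKM values of 2.77 and 2.78 to 1.57 and 1.498 (log2 fold change -0.81, SE 0.130, limma adjusted p = 0.00788). The other receptors were not called, among them *Plxna1* with means of 42.9 and 46.0 and *Plxna3* with 26.3 and 33.3. *Nrp1*, a neuropilin gene, had means of 2.86 and 1.93 and an adjusted p of 0.0224 in limma, with a log2 fold change of -0.55 that was short of the fold required. The median of the list was 0.10. *Crmp1*, a mediator of semaphorin signals, had an adjusted p of 0.000623 in limma but a log2 fold change of 0.52, short of the fold required.

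On the side of the substrate, 0 of 9 genes for actins, cofilins and methionine sulfoxide reductases were called, and the median was 0.19. Some enzymes of the reductase group, not all, reverse the oxidation. *Actb* and *Actg1*, the cytoplasmic actin genes, had log2 fold changes of 0.26 and 0.19. *Msrb2*, a mitochondrial reductase gene, had the largest value of the list, 0.72 (SE 0.236), with an adjusted p of 0.0823 in limma. Of 14 tested genes of the serum response factor axis, on which MICAL2 acts, 1 was called and the median was -0.01. *Tagln2*, an actin-binding protein gene, rose from RPKM values of 2.38 and 3.32 to 5.65 and 4.76 (log2 fold change 0.86, SE 0.169, limma adjusted p = 0.0166).

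Among the junction and actin crosslinking genes reported here, 0 of 5 tested were called and the median was -0.17. *Tjp1*, a tight junction scaffold gene, had an adjusted p of 0.0074 in limma but a log2 fold change of -0.35, short of the fold required. Among 7 other partners of MICAL1 and MICAL3, *Nedd9*, the CAS family adaptor (CasL) after which MICAL is named, fell from 31.1 and 31.8 to 17.5 and 15.8 RPKM (log2 fold change -0.91, SE 0.0635, limma adjusted p = 0.000287). The median of that list was 0.04. The calls of *Ehbp1l1* and *Tagln2* were lost when the first control library or either of the mutant libraries was left out. *Ehbp1l1* and *Plxna4* were not called with a pseudocount of 1. *Ehbp1l1* was also not called with quantile normalization, nor *Tagln2* in eBayes without a trend. Of 13 alternative settings, the call of *Ehbp1l1* held in 7 and that of *Tagln2* in 8.

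**Figure D4:**
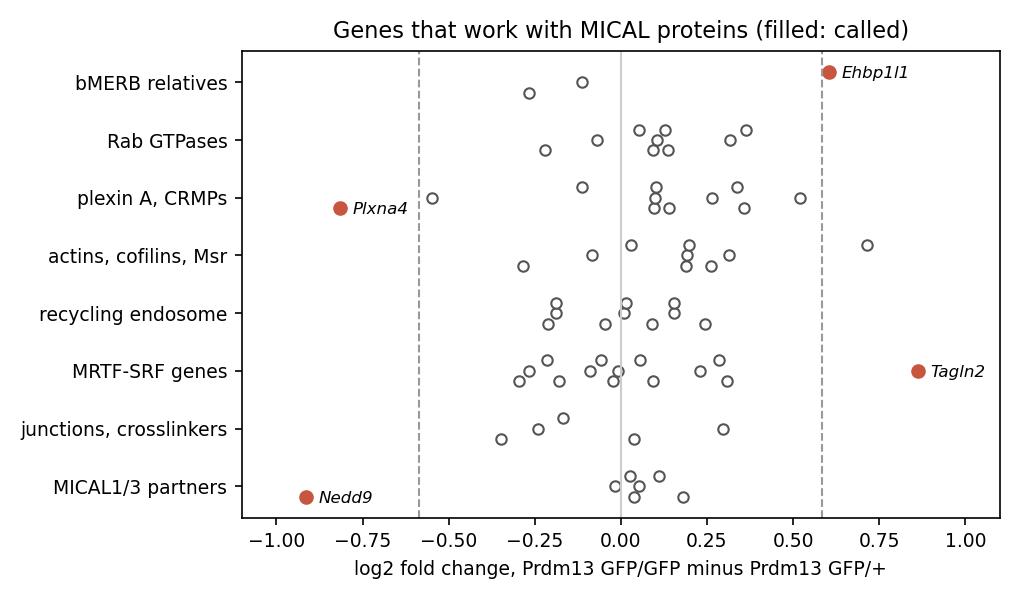
Log2 fold change, mutant minus control, of the 68 tested genes in 8 lists of genes that work with MICAL proteins, with 1 circle per gene, filled where called, and dashed lines at a fold of 1.5. The filled circles are Ehbp1l1 and Tagln2 to the right and Plxna4 and Nedd9 to the left, and the other 64 circles are open, with Msrb2 at 0.72 beyond the dashed line.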

How the data were processed

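RNA-seq of 4 libraries, 2 from each of the pools of 7 *Prdm13 GFP/+* and 9 *Prdm13 GFP/GFP* embryos, was analysed. The authors aligned reads to mm10 with TopHat2 2.1.0, counted them on RefSeq exons with featureCounts, scaled library sizes by TMM in edgeR 3.6.8, and deposited RPKM per gene and library, which were used as deposited. Whole reads came out for 99.75% of 19200 genes above 0, to a relative tolerance of 6e-07. That share counts genes with a whole-read solution and does not check the read numbers. The exon length implied by the solution lay within about 5% of the GENCODE exon length for 5080 of 18403 genes with both lengths.

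The 12046 genes whose mean RPKM reached 1 in a genotype were tested as log2(RPKM + 0.1) in limma 3.58.1 (R 4.3.3, eBayes with a trend, two-sided, Benjamini-Hochberg), after a trial on simulated data. The members, the 8 lists of partner genes and the 8 reference and marker lists were chosen with earlier results of these data known. The results of 2 listed genes are not reported here, and the lists, counts and sums exclude them, a choice made after values had been seen. Named genes are the members, called genes of the partner lists, the 5 neighbours on each side of *Micalcl*, other called neighbours, the 5 genes most like *Micalcl* and *Prdm13*. *Rab13*, *Rab8a*, *Plxna1*, *Plxna3*, *Nrp1*, *Crmp1*, *Actb*, *Actg1*, *Msrb2*, *Tjp1* and the marker genes were named after their values were seen. The libraries differ beyond sampling noise (mean chi-square per gene 2.54 and 2.53). Promoters and coordinates are from RefSeq, GRCm38.p6. Python 3.11.15 was used for tables. The 13 alternatives were other pseudocounts, filters, scalings and tests, a replicate block and leaving out each library.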

Additional observations from a re-analysis of the deposited data

How the results depend on the processing

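The tests compare 1 pool of embryos per genotype, and *Micalcl* rests on 4 reads in mutant cells. The interval given for its fold covers counting error only, and neither the spread between libraries nor that between embryos. Without a filter on RPKM, when all genes of the table are tested together, 30 genes were called higher and 14 lower in place of 440 and 322. In that setting 0 members, 0 neighbours and 0 of the partner genes were called in either direction. Without the second *Prdm13 GFP/GFP* library 285 genes were called higher. Leaving out a library in turn gave 285 to 490 higher and 240 to 298 lower calls.

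The log2 fold change of *Micalcl* was -2.05 with a pseudocount of 1, -5.83 with 0.01, -5.65 in limma voom on the recovered reads and -4.73 to -4.29 with a library left out. Partner genes called higher numbered 1 with a pseudocount of 1, with quantile normalization or without a trend, and 0 to 3 with a library left out. Partner genes called lower numbered 1 with a pseudocount of 1. The causes were not tested. The calls of *Nedd9* and *Dkk3* were lost only without the filter.

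The replicate numbers share only a number: deviations of same-numbered libraries correlated at 0.0475 over 12046 genes. With the replicate number as a block, 459 genes were called higher and 342 lower, with 1 member lower, 3 partner genes higher and 2 lower. A filter of at least 20 reads in a library was added after the data were seen and changed none of the members' calls.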
